A study of Mus musculus with 30 samples.

Results

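The data described here are the 15 gonadal white adipose tissue (gWAT) libraries labelled diabetes-resistant (DR), of 30 libraries in all, and the question is how gene expression varied from animal to animal inside that group. The libraries were taken by their disease state label, and no comparison with the diabetes-prone (DP) group was made. Each library is total RNA from the gWAT of 1 female New Zealand Obese (NZO, strain NZO/HIBomDife) mouse, fed a high-fat diet and 10 weeks old when the tissue was taken, and sequenced by BGI. All DR mice share the inbred strain, sex, diet and age, and were classed as resistant by a risk score while still alive, so the label is a phenotype and not a genotype or a treatment. The sources name no litter, cage or hour of tissue collection. The libraries are named DR1 to DR15 in the order of their library numbers, which carries no other meaning. Since each comes from another animal, the p-values below judge relations against the scatter between animals of this one group.

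As background, gWAT of an obese mouse is a mixture. Adipocytes hold the lipid droplet and make hormones such as leptin, adiponectin, resistin and adipsin, while the stroma holds macrophages, lymphocytes, vessels, fibroblast-like progenitors and a mesothelial cover. Macrophages gather around dying adipocytes in obesity, take up lipid, and switch on genes for lysosomes and lipid handling, whereas a resident population marked by Timd4 and Lyve1 sits along vessels. In bulk RNA, fewer cells of a type and less RNA per cell of that type cannot be told apart.

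Counts were divided by library size, scaled for composition and given as CPM, and the log2 of these values was used for all measures of spread. Because CPM is not divided by gene length, levels are compared between libraries and not between genes. The library DR7 (library number 196) was left out of every result unless stated, because 12 liver markers summed to 6608 CPM in it against 12.1 to 60.3 CPM in the other 14 libraries. Total counts of those 14 libraries ran from 28321555 to 29807437, with 23854 to 24497 genes detected and 6.09% to 8.29% of counts from the mitochondrial genome. Adipocyte markers were abundant in each of these libraries: 14 of them beside those of the score summed to 43166 to 56578 CPM. Markers of pancreas summed to at most 0.516 CPM, those of oviduct, epithelium and mammary gland to at most 3.11 CPM, and those of ovary to at most 12.1 CPM. Skeletal muscle markers were less scarce, from 66.4 CPM in DR6 over a median of 97.8 to 256 CPM in DR10.

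The macrophage score closely followed the main axis along which these libraries differed, which is the first principal component described below. The macrophage score of a library is its mean log2 CPM of Adgre1 (the F4/80 antigen), Cd68 (a lysosomal glycoprotein of phagocytes), Csf1r (the receptor for macrophage colony stimulating factor) and Lyz2 (lysozyme), and it ran from 7.39 in DR11 over a median of 8.30 to 8.91 in DR12. The adipocyte score, the mean log2 CPM of the lipid droplet genes Plin1 (perilipin), Lipe (hormone-sensitive lipase) and Cidec, ran over a narrower range, from 10.81 in DR8 over a median of 11.07 to 11.32 in DR11. DR8 and DR12 had the highest macrophage scores and DR11 the lowest by a wide gap, and DR8 and DR11 stood at opposite ends of the adipocyte score.

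Behind the macrophage score, Adgre1 ran from 61.0 CPM in DR11 over a median of 138 to 247 CPM in DR12, a 4.05-fold range. Csf1r moved less, from 206 to 392 CPM. The adipocyte markers had the smallest ranges, with Plin1 between 1240 and 1772 CPM and Cidec between 3454 and 4844 CPM.

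The scores were inversely related over the 14 libraries (Pearson r = -0.819, permutation p = 0.00044; Spearman rho = -0.741, permutation p = 0.00383, both two-sided with 100000 resamples, 1 relation tested). Without the 2 libraries farthest from the median macrophage score r was -0.703. The first principal component over 15083 genes with a mean CPM over 1 held 23.8% of the variance and followed the scores, with r = 0.96 to the macrophage score and r = -0.84 to the adipocyte score as a description over the same 14 libraries. Among established symbols outside both scores, its largest loadings were those of Rxfp1 (-0.109), Pcp4 (-0.101) and Ccl21a (-0.086). These genes are described below among the most variable. The largest positive loading was that of Gpr50 (0.068). The next components held 10.5% and 8.71%, and both had r between -0.14 and 0.10 to either score.

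**Figure D1:**
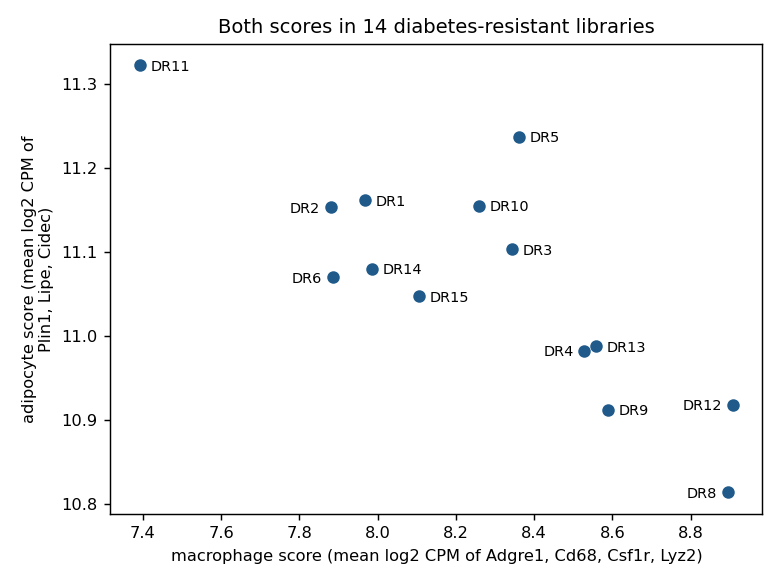
The adipocyte score (y axis, log2 CPM) is plotted against the macrophage score (x axis, log2 CPM), with 1 labelled point for each of the 14 DR libraries. DR11 stands alone at the upper left (7.39 and 11.32), while DR8 (adipocyte score 10.81) and DR12 (macrophage score 8.91) sit at the lower right.

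Each gene was then fitted against the macrophage score with edgeR's quasi-likelihood test. The slope is the change in a gene's log2 CPM for each log2 unit of the score, so a slope of 1 is a change in proportion to the markers. Of 18391 genes tested, leaving out the 4 markers of the score, 1844 rose with the score (10.03%) and 1403 fell (7.63%) at an adjusted p under 0.05. The median slope over all genes was -0.02. Among those that rose, 292 had a slope of at least 1. The number that fell was 806 without DR8 and 776 without the 2 libraries farthest from the median score.

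The 8 genes that rose with the smallest p-values included several known from macrophages and other blood cells. Mpeg1, which codes for the pore-forming protein perforin-2 of macrophages (chr19:12460779-12465283, plus strand, GRCm38), ran from 92.4 CPM in DR11 over a median of 238 to 431 CPM in DR8. Its slope was 1.45 ± 0.05 (SE, n = 14; edgeR adjusted p = 1.86e-11). The libraries fell in nearly the same order for Mpeg1 as for the score, with DR8 and DR12 highest and DR11 lowest. Since Mpeg1 was chosen by its fit to this score, that order is not separate evidence.

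Nckap1l, a subunit of the actin-regulating WAVE complex found in blood cells, had a slope of 1.20 ± 0.04. Slc37a2, a sugar phosphate exchanger of macrophages, ran from 22.9 to 119.5 CPM, and Nceh1, which hydrolyses cholesterol esters, had a slope of 1.47 ± 0.06. The other genes of this set were Sel1l3 (1.88 ± 0.07), Igsf6 (1.06 ± 0.04), the protein kinase C substrate Plek (1.03 ± 0.04) and the unconventional myosin Myo1e (1.34 ± 0.06), each with an edgeR adjusted p below that of any gene that fell. In all 8, DR11 was the lowest library and DR8 or DR12 the highest, an order favoured by the choice of genes on this score.

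Most other macrophage genes rose with the score, while markers of resident macrophages were mixed. Of 22 further macrophage markers, all tested, 17 rose and 2 fell, against 10.03% and 7.63% of all genes. Their median slope was 0.65. Examples are the cysteine protease Ctss (99.0 to 321 CPM, slope 1.05 ± 0.04), the scavenger receptor Msr1 (17.2 to 65.9 CPM, slope 1.34 ± 0.10) and the adaptor Tyrobp (41.7 to 115 CPM, slope 0.96 ± 0.04). The complement genes C1qa, C1qb and C1qc rose more shallowly, with slopes of 0.40 to 0.62.

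The markers that fell were Timd4, a phosphatidylserine receptor (3.91 to 8.43 CPM, slope -0.72 ± 0.14, edgeR adjusted p = 0.0022), and Lyve1, a hyaluronan receptor shared with lymphatic endothelium (24.1 to 50.4 CPM, slope -0.49 ± 0.15, adjusted p = 0.038). Timd4 was lowest in DR12, DR4 and DR8, and highest in DR1 and DR6. Folr2 and Mrc1, which also mark resident macrophages, rose, with slopes of 0.57 ± 0.17 and 0.42 ± 0.08. Folr2 shares 63.1% of its exon bases with Gm10602 on the opposite strand, and whether reads were counted by strand is not stated. Cd163, Mertk and Cx3cr1 passed in neither direction, with slopes of -0.28 ± 0.10, 0.19 ± 0.13 and 0.23 ± 0.30.

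The genes of lipid-associated macrophages, the state described around dying adipocytes, gave some of the steepest slopes. Of 12 members 11 rose and 1 fell, against 10.03% and 7.63% of all genes, with a median slope of 1.02. Gpnmb, a glycoprotein of lipid-laden macrophages, ran from 95.9 CPM in DR11 over a median of 316 to 662 CPM in DR12, with 636 in DR8 and 561 in DR13 (slope 1.67 ± 0.13). Trem2, the lipid-sensing receptor of these cells, ran from 27.7 to 127 CPM (slope 1.30 ± 0.07), and Spp1, osteopontin, from 6.87 to 62.8 CPM (slope 1.46 ± 0.28).

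Mmp12, the macrophage elastase (78.0 to 308 CPM), and Itgax, the integrin CD11c (44.6 to 162 CPM), rose with slopes of 1.28 ± 0.12 and 1.07 ± 0.12. The single member that fell was Acp5, the tartrate-resistant acid phosphatase, which was highest in DR11 (469 CPM) and lowest in DR13 (301 CPM), with a slope of -0.38 ± 0.06 and an edgeR adjusted p of 0.00046. Acp5 thus ran against the other markers of the same state.

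Lysosomal genes rose almost without exception, 17 of 18 against 10.03% of all genes, with a median slope of 0.45. The steepest was Atp6v0d2, a subunit of the proton pump that acidifies the lysosome, at 20.1 CPM in DR11 and 163 CPM in DR12 (median 75.5, slope 1.86 ± 0.09). Abundant cathepsins moved less: Ctsb ran from 2329 to 3643 CPM (slope 0.44 ± 0.04) and Ctsd from 1657 to 2723 CPM (slope 0.46 ± 0.06). The lysosomal calcium channel Mcoln1 did not pass (49.7 to 58.9 CPM, slope 0.03 ± 0.05).

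All 7 genes of MHC class II antigen presentation rose, against 10.03% of all genes. Their slopes lay between 0.43 ± 0.10 for H2-DMa and 0.93 ± 0.20 for Ciita, the factor that switches the group on. With the adipocyte score as a second term 0 of the 7 rose. That model called 560 genes rising and 153 falling over all genes tested, against 1844 and 1403 with 1 score. Counts from it, here and below, are to be read against those smaller numbers. DR9 was the highest library for 6 of the 7, as for Cd74, the invariant chain (628 CPM in DR11, median 862, 1255 CPM in DR9). By the macrophage score DR8 and DR12 stood above DR9.

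**Figure D2:**
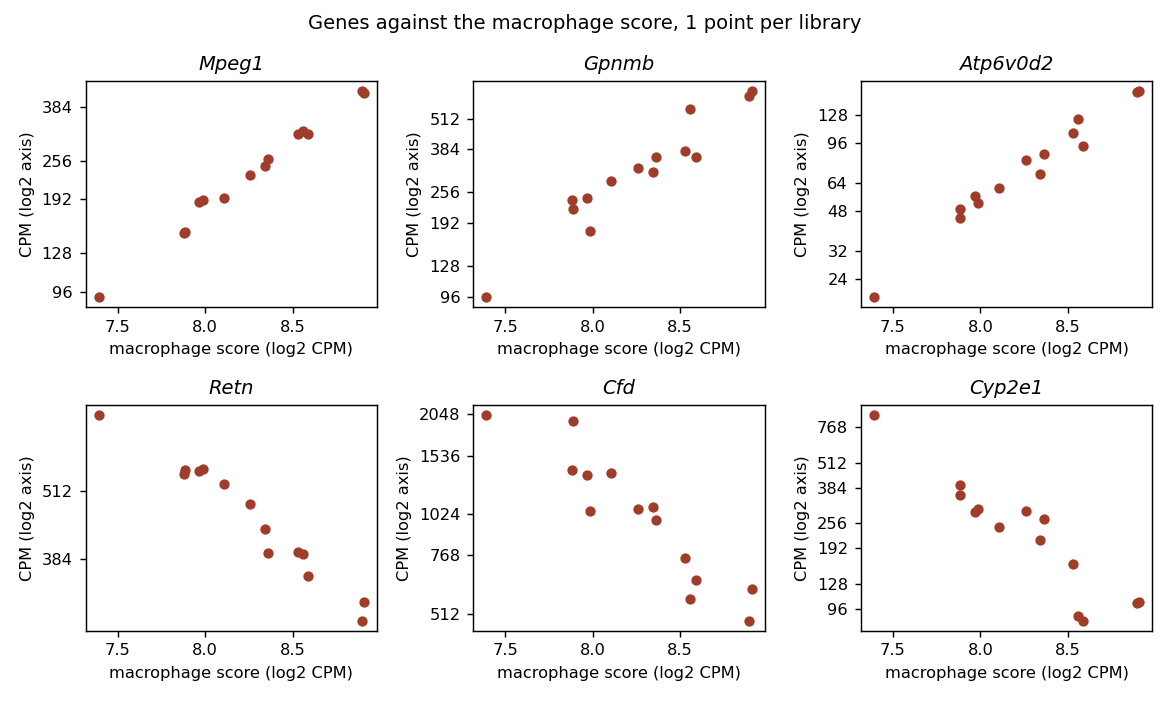
CPM on a log2 axis (y) is plotted against the macrophage score (x, log2 CPM) for 6 genes, with 1 point per DR library. Mpeg1, Gpnmb and Atp6v0d2 climb with the score, from 92.4, 95.9 and 20.1 CPM in DR11, while Retn, Cfd and Cyp2e1 descend from 705, 2037 and 884 CPM in the same library.

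Few single genes of lymphocytes and granulocytes passed with the macrophage score. Of 17 T and NK cell genes, 1 rose, the interleukin-7 receptor Il7r (7.80 to 43.0 CPM, slope 1.52 ± 0.09), while the T cell receptor component Cd3e (0.634 to 3.74 CPM) had a slope of -0.05 ± 0.37. Of 12 B and plasma cell genes none rose and 1 fell, Ighd (slope -0.55 ± 0.12). The neutrophil list gave 1 riser of 7 tested, the receptor Csf3r, and the mast cell list 1 of 8, the carboxypeptidase Cpa3. None of 7 dendritic cell genes passed. Over all genes 10.03% rose and 7.63% fell. As a description over the 14 libraries, the summed CPM of the T and NK list had r = 0.62 to the macrophage score and r = -0.71 to the adipocyte score, that of the neutrophil list 0.58 and -0.61, and that of the B and plasma cell list -0.60 and 0.41. With the adipocyte score 3 of 12 B and plasma cell genes rose, against 4.64% of all genes.

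Genes of cell division rose with the macrophage score in 13 of 15 cases, against 10.03% of all genes. With the adipocyte score as a second term 1 rose. The proliferation marker Mki67 ran from 17.1 CPM in DR11 over a median of 32.4 to 48.8 CPM in DR9 (slope 0.97 ± 0.18), and Pcna, the sliding clamp of DNA replication, from 33.3 to 74.6 CPM (slope 0.71 ± 0.07). The 2 that did not pass were Cdk1 and Plk1, with slopes of 0.45 ± 0.17 and 0.51 ± 0.19. Which cells were dividing cannot be read from bulk RNA.

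Of 18 immediate early genes 6 rose and none fell, against 10.03% and 7.63% of all genes. With the adipocyte score in the model 2 of the 18 rose, where 560 genes rose over all genes tested. The stress factor Atf3 (12.97 to 67.62 CPM, slope 1.44 ± 0.07), Fos (9.97 to 34.7 CPM, slope 1.27 ± 0.13) and Egr2 (2.99 to 11.5 CPM, slope 1.09 ± 0.15) were steep, whereas Jun (slope 0.18 ± 0.08), Egr1 (0.23 ± 0.20) and Nr4a1 (0.12 ± 0.13) did not pass. In Atf3 and Fos, DR11 was the lowest library and DR12 and DR8 were the highest.

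Of 18 extracellular matrix genes 6 rose, against 10.03% of all genes. With the adipocyte score in the model 0 did, where 560 genes rose over all genes tested. Among the 6 were the matricellular gene Thbs1 (79.8 to 240 CPM, slope 0.87 ± 0.19), the protease inhibitor Timp1 (slope 0.84 ± 0.24) and the protease Mmp14 (slope 0.43 ± 0.08). The fibrillar collagens did not pass, with slopes of 0.10 ± 0.12 for Col1a1 and 0.35 ± 0.14 for Col3a1. Of 9 glucocorticoid-responsive genes 3 rose, the metallothioneins Mt1 and Mt2 and the kinase Pdk4. Mt2 shares 73.5% of its exon bases with Gm45774 on the opposite strand.

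The genes that fell with the macrophage score were led by adipocyte hormones and metabolic enzymes. Retn, which codes for resistin, a hormone of adipocytes in mice (chr8:3655770-3660110, plus strand, GRCm38), ran from 296 CPM in DR8 over a median of 459 to 705 CPM in DR11. Its slope of -0.84 ± 0.05 had the smallest p of all genes that fell (edgeR adjusted p = 4.62e-09). DR8 and DR12 were the lowest libraries for Retn and DR11 the highest, the mirror of their order for Mpeg1. Both genes were chosen by their fit to the same score, which favours such orders.

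Cyp2e1, a cytochrome P450 that oxidises ethanol and acetone (chr7:140763739-140774987, plus strand), ran from 83.9 CPM in DR9 over a median of 258 to 884 CPM in DR11. DR9, DR13, DR8 and DR12 lay between 83.9 and 104 CPM, and the slope was -2.08 ± 0.20. Cfd, which codes for adipsin, the protease that starts the alternative complement pathway (chr10:79890853-79892655, plus strand), ran from 488 CPM in DR8 over a median of 1052 to 2037 CPM in DR11, with a slope of -1.44 ± 0.14.

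The other genes of this set were Ivd, which acts in leucine breakdown (slope -0.56 ± 0.05), the D-lactate dehydrogenase Ldhd (-0.69 ± 0.07), Mocs1 of molybdenum cofactor synthesis (-0.40 ± 0.04), the cytoskeletal gene Zfp185 (-1.08 ± 0.08) and Mif4gd (-0.50 ± 0.04). Ldhd shares 42.2% of its exon bases with Znrf1 on the opposite strand, and whether reads were counted by strand is not stated.

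Adipokines did not fall as a block. Of 8 measured, 5 fell (Retn, Cfd, Adipoq, Rbp4 and Apln), against 7.63% of all genes, and 3 did not pass. Adipoq, adiponectin, ran from 1429 CPM in DR9 to 2645 CPM in DR11 with a slope of -0.57 ± 0.08. Leptin, Lep, ran from 2838 CPM in DR12 to 4519 CPM in DR2 with a slope of -0.16 ± 0.09, which did not pass (edgeR adjusted p = 0.24). DR2 stood above the other libraries for Lep, and DR11, the highest for Retn, Cfd and Adipoq, was at 3370 CPM.

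Among 14 other adipocyte markers 5 fell and 1 rose, against 7.63% and 10.03% of all genes. Those that fell were Car3, the abundant carbonic anhydrase of fat (slope -0.62 ± 0.09), Adipoq, the insulin-responsive glucose transporter Slc2a4 (113 to 193 CPM, slope -0.46 ± 0.06), Plin4 and Cebpa. The fatty acid transporter Cd36, which macrophages also express, rose (4030 to 4908 CPM, slope 0.15 ± 0.04). Pparg, the master regulator of adipocyte identity (221 to 262 CPM), and Fabp4 (7563 to 10103 CPM) did not pass, with slopes of -0.09 ± 0.05 and -0.02 ± 0.07. The highest library exceeded the lowest 1.18-fold for Pparg.

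Most enzymes of branched-chain amino acid breakdown fell. Of 16 genes 13 fell with the macrophage score, against 7.63% of all genes, and the same number rose with the adipocyte score, against 4.64% of all genes. Bcat2, the mitochondrial transaminase that takes the first step, ran from 84.4 CPM in DR8 over a median of 112 to 153 CPM in DR11 (slope -0.49 ± 0.08). Bckdha of the branched-chain ketoacid dehydrogenase ran from 112 to 210 CPM (slope -0.48 ± 0.10), though 61.7% of its exon bases lie in B3gnt8 on the other strand. Among those that did not pass were Bckdhb and Dbt, with slopes of -0.10 ± 0.05 and -0.11 ± 0.06. DR11 was the highest library for all 13 that fell. With the adipocyte score as a second term 2 of the 16 fell.

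Vessel genes fell as well. Of 10 endothelial genes 9 fell, against 7.63% of all genes. Their slopes lay between -0.61 ± 0.20 for the tight junction gene Cldn5 (39.2 to 92.4 CPM) and -0.27 ± 0.09 for the transcription factor Erg. Only Vwf did not pass (-0.14 ± 0.10). With the adipocyte score as a second term 0 of the 10 fell. DR13, DR12 and DR8 were the low libraries. In the smooth muscle and pericyte list 3 of 8 fell (7.63% of all genes did), the contractile genes Cnn1 and Myh11 and the pericyte gene Rgs5.

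Of 16 genes of fatty acid synthesis 6 fell, including Thrsp (50.1 to 268 CPM, slope -1.46 ± 0.31), Acaca (slope -0.63 ± 0.17) and Fasn (slope -0.76 ± 0.25), and Scd1 did not pass (0.17 ± 0.09). Of 19 cholesterol synthesis genes tested 1 rose and 2 fell, Fdft1 and Mvk, near the shares of all genes (10.03% and 7.63%). Of 12 fatty acid oxidation genes 2 rose, Cpt1a (slope 0.47 ± 0.08) and Hadha, and none fell, against 10.03% and 7.63% of all genes.

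Other lists had few or no calls, to be read against the 10.03% of all genes that rose and the 7.63% that fell. None of 13 genes of the mitochondrial genome passed with either score, and 3 of 19 nuclear genes of the respiratory chain and TCA cycle fell with the macrophage score. None of 9 mesothelial genes, none of 9 tested brown and beige fat genes and none of 5 tested red blood cell genes passed. Of 15 interferon-stimulated genes 1 rose, Oas1a, and of 17 clock genes 1 fell, Cry2 (slope -0.26 ± 0.08). Of 12 insulin signalling genes 2 rose and 1 fell.

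**Figure D3:**
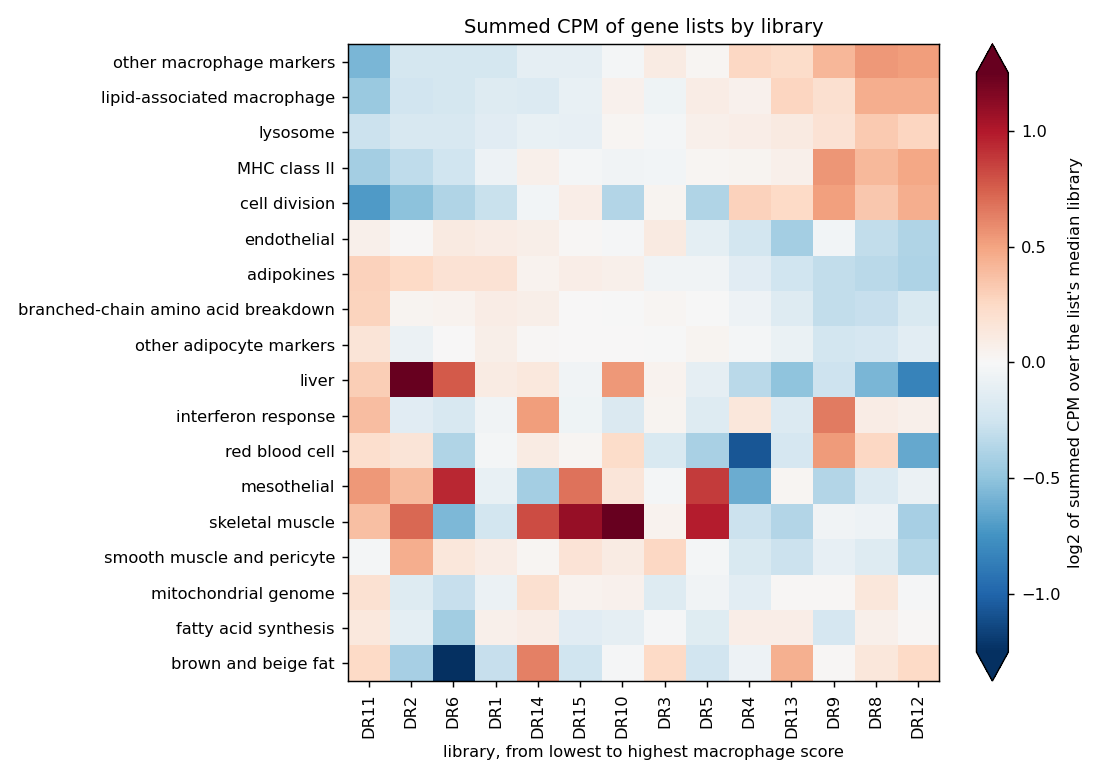
Each cell shows the summed CPM of a gene list (rows) in a DR library (columns, from the lowest to the highest macrophage score), as log2 of the sum over that list's median library, with colours ending at the printed limits. The first 5 lists turn from blue to red along the axis, while endothelial genes, adipokines and branched-chain amino acid breakdown turn the other way. The interferon and red blood cell sums follow the axis little (r = -0.03 and -0.26 to the macrophage score). The smooth muscle and pericyte, mesothelial and skeletal muscle sums follow it in part, inversely, with r of -0.62, -0.48 and -0.32.

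The adipocyte score gave largely the reverse of the same genes. Of 18392 genes tested, 853 rose with it (4.64%) and 1469 fell (7.99%), and the number that rose was 386 without DR8 and 485 without DR11, while 882 fell without DR11. Of the genes that rose with the macrophage score 1273 fell with the adipocyte score, which is 69.0% of the first list and 86.9% of the second. Of those that fell with the macrophage score 632 rose with the adipocyte score, 45.1% and 74.1% of the respective lists, and 0 genes moved in the same direction with both. The markers of both scores were left out of these lists, which makes 1400 genes falling with the macrophage score and 1465 falling with the adipocyte score. Both scores come from the same libraries and are inversely related, so this overlap is not independent evidence.

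Mitochondrial enzymes were among the genes that rose with the adipocyte score with the smallest p-values. Pccb, the propionyl-CoA carboxylase subunit that drains valine and isoleucine, ran from 105 to 161 CPM (slope 1.19 ± 0.16), and Echdc2, from 12.85 to 26.04 CPM (slope 2.15 ± 0.25). Sncg (gamma-synuclein), Fxyd1, Sh3glb2, Bckdha and Cyp2e1 were also in the set, all highest in DR11 and lowest in DR8 or DR9. Choosing genes by their fit to the adipocyte score favours such an order.

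Among those that fell most clearly were Mki67 (slope -3.45 ± 0.40) and the kinase Prkcd (68.5 to 109.9 CPM, slope -1.28 ± 0.16). Fen1, a replication nuclease, fell too (slope -2.25 ± 0.28), with 78.8% of its exon bases in the opposite-strand model Gm10143. All 15 cell division genes fell with the adipocyte score, against 7.99% of all genes. Slopes on this score are steep because the score itself spans only 0.51 log2 units.

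With both scores in the model, edgeR called 560 genes rising and 153 falling with the macrophage score over all genes tested. Of the further macrophage markers 12 of 22 rose in that model, of the lipid-associated list 7 of 12 and of the lysosomal list 13 of 18. Of the 8 adipokines 3 fell, and none of the genes of the fatty acid synthesis, liver and further adipocyte lists did. With the macrophage score held, 0 genes rose and 0 fell with the adipocyte score, while 818 and 846 did at an unadjusted p under 0.05. The adipocyte score thus gave no call beyond the macrophage score in these 14 libraries, and at an inverse relation of r = -0.819 the separate parts of the scores were small.

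Low levels of liver marker transcripts ran along the same axis. Of the 12 markers 8 had a mean below 1 CPM in these 14 libraries, and the source of the transcripts was not tested. The liver markers summed to 12.1 CPM in DR12, a median of 21.6 and 60.3 CPM in DR2, with albumin, Alb, at 7.99 to 36.2 CPM. Of 11 tested liver genes 5 fell with the macrophage score, against 7.63% of all genes. Alb had a slope of -1.20 ± 0.26 (edgeR adjusted p = 0.0037). Of 18 relations of the scores and the first component to total count, genes detected, mitochondrial share, library number, red blood cell and liver sums, those past the threshold were of the log2 liver sum. It was related to the macrophage score with r = -0.734 (permutation p = 0.00273, adjusted 0.0246) and rho = -0.908 (permutation p = 2e-05, adjusted 0.00036), and with r = -0.739 without the 2 libraries farthest from the median liver sum. Against the first component r was -0.807 (permutation p = 0.00022, adjusted 0.00396) and rho -0.895 (permutation p = 6e-05, adjusted 0.00054), and r was -0.822 without the 2 farthest libraries.

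With the log2 liver sum as a second term, an alternative chosen after seeing the data, 758 genes rose and 244 fell with the macrophage score, and 67 rose and 173 fell with the adipocyte score. All 32 slopes of the genes named for a score stayed past the threshold in that model. The part of the liver marker transcripts in the relation of the scores was not tested.

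Beyond this axis, several gene groups varied together between animals in patterns of their own. As a description over the 14 libraries, the mean pairwise r of log2 CPM was 0.00 over all genes with a mean CPM over 1, and 0.97 in the red blood cell list, 0.89 in the mitochondrial genome, 0.88 in the mesothelial list and 0.73 in the interferon list. After the macrophage score was removed from each gene these values were 0.97, 0.90, 0.88 and 0.82. By contrast the lysosome list went from 0.79 to 0.10, and the MHC class II and cell division lists from 0.89 and 0.86 to 0.72 and 0.74. Opposed genes cancel in a signed mean. Over all genes the mean size of r without sign was 0.28, and 0.25 after the score was removed. Genes in a library share its depth and composition, so no test was attached to these values.

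The interferon-stimulated genes were highest in DR9, DR14 and DR11, which lie at different places on the macrophage axis. Their sum ran from 328 CPM in DR6 over a median of 376 to 588 CPM in DR9, with 539 CPM in DR14 and 492 CPM in DR11. Mx1, an antiviral GTPase, ran from 18.6 CPM in DR2 over a median of 24.7 to 54.0 CPM in DR9. Ifit3, which codes for an interferon-induced antiviral protein, ran from 11.7 CPM in DR13 over a median of 13.8 to 23.2 CPM in DR9. For Ifit3, DR9, DR14 and DR11 were the highest libraries, at 23.2, 22.3 and 20.4 CPM.

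The promoters of these genes are shown because the members still varied together once the macrophage score was removed. The element searched was the core of the interferon-stimulated response element, written GAAANNGAAA, on both strands of the 250 bases before each RefSeq transcript start (GRCm38.p6). It occurred in 6 of 10 matched genes of the list and in 3.46% of 27025 genes, and capitals mark 1 copy in each window, read as its reverse complement in Ifit1, Ifit3 and Rsad2. Further copies, some overlapping the marked one, stand in lower case or run out of the capitals in Ifit1, Isg15, Bst2 and Oas1a. A match is a description of the letters and not evidence of binding. For the macrophage genes, the PU.1 element searched as GAGGAAGT occurred in 1 of 6 matched genes named for rising with the macrophage score (Nceh1), in 1 of 17 matched further macrophage markers (C1qc) and in 2.79% of all genes.
Ifit1 (chr19:34640779-34640838, plus strand): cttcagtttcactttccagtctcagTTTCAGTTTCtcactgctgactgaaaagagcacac
Ifit3 (chr19:34583382-34583441, plus strand): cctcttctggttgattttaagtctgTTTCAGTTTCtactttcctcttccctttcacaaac
Isg15 (chr4:156200850-156200909, minus strand): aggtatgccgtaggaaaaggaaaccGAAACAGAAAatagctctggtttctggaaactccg
Rsad2 (chr12:26456538-26456597, minus strand): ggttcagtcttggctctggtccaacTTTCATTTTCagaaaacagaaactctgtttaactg
Bst2 (chr8:71537568-71537627, minus strand): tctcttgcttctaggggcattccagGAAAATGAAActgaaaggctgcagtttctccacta
Oas1a (chr5:120907526-120907570, minus strand): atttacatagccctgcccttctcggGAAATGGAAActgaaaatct

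Of the genes printed, Isg15, a ubiquitin-like modifier, ran from 3.56 CPM in DR13 to 9.36 CPM in DR9 and Rsad2, viperin, from 16.2 CPM in DR10 to 32.0 CPM in DR9. Oas1a was the member that also rose with the macrophage score (9.06 CPM in DR1 to 21.2 CPM in DR9, slope 0.58 ± 0.16). DR9 was the highest library for 12 of the 15 genes of the list, and DR14 for Bst2, Ifit2 and Usp18.

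DR9 stood out for other immune and acute phase genes too. The cytotoxic granule gene Gzmb was at 7.91 CPM in DR9 and at 0.580 to 1.78 CPM elsewhere, and the acute phase gene Hp, haptoglobin, at 2261 CPM in DR9 and 1108 to 1569 CPM elsewhere. The T cell genes Cd8a (3.37 CPM), Cd3e (3.74 CPM) and Nkg7 (11.2 CPM) also peaked there. These are values of 1 animal, chosen after they were seen, and carry no test.

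Clock genes varied over a wide range in an order that neither score followed. In mammals CLOCK and BMAL1 (Arntl) drive their own repressors and a set of output genes such as Dbp and Tef through E-boxes, and the output genes peak when Arntl is low. Dbp ran from 10.9 CPM in DR9 over a median of 45.9 to 83.5 CPM in DR5, and Per3 from 14.7 CPM in DR9 over a median of 38.0 to 56.9 CPM in DR5. DR9, DR4 and DR3 were the low libraries for Dbp, Per3 and Tef, and DR5 and DR12 were at or near the top.

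Arntl ran the other way, from 5.59 CPM in DR5 over a median of 13.9 to 23.7 CPM in DR3. Nfil3, a repressor of the same output genes, ran from 10.7 CPM in DR5 to 32.6 CPM in DR9, and Npas2, the partner that can replace CLOCK, from 3.31 CPM in DR11 to 9.59 CPM in DR9. In the list of 17 clock genes the mean pairwise r was 0.06 but its mean size without sign was 0.49, against 0.28 over all genes, which reflects the opposed members. Clock itself moved little, from 84.6 to 116 CPM. Bhlhe41 was at 3.42 CPM in DR13 and between 16.7 and 34.2 CPM in the other 13 libraries. The clock genes apart from Cry2, Npas2 and those with the smallest p on a score were named after their values were seen.

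**Figure D4:**
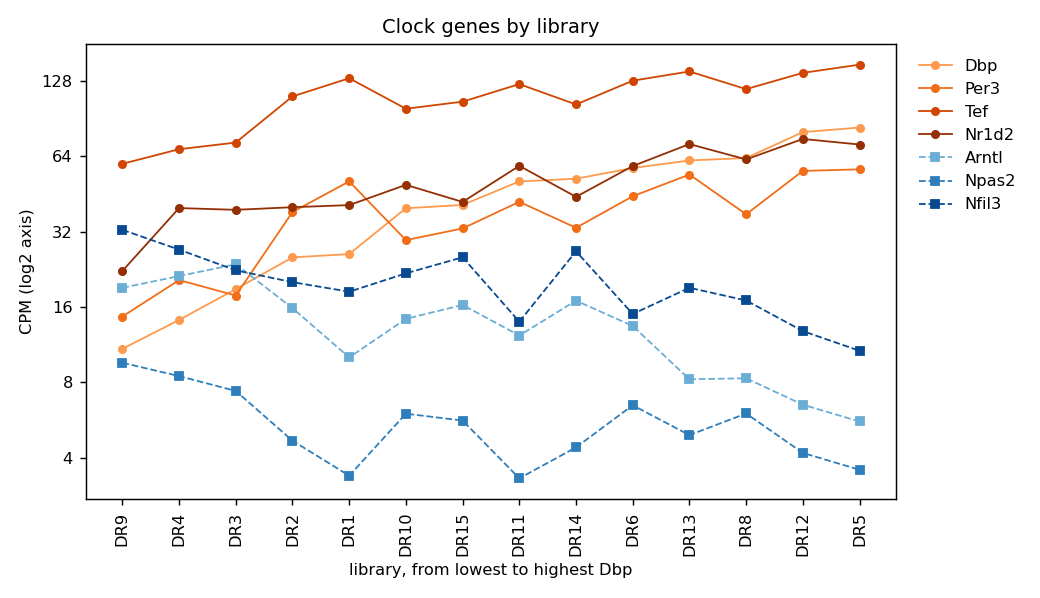
CPM on a log2 axis (y) is shown for 7 clock genes in each of the 14 DR libraries (x), ordered from the lowest to the highest Dbp. Solid lines (Dbp, Per3, Tef, Nr1d2) are higher at the right, Dbp from 10.9 CPM in DR9 to 83.5 CPM in DR5, and dashed lines (Arntl, Npas2, Nfil3) are higher at the left, Nfil3 from 32.6 to 10.7 CPM.

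The E-box CACGTG lay in the 250 bases before the start of 4 of 9 matched clock output and repressor genes, against 6.86% of all 27025 genes. The element bound by the output factors of the Dbp family, searched as TTANGTAA, occurred in Per3 and in 2.44% of all genes, and the element of the ROR and REV-ERB receptors, searched as TAGGTCA, in Nfil3 among 5 genes of the opposed arm and in 2.55% of all genes. Both strands were searched. One window per gene is printed with 1 copy of the element in capitals, as its reverse complement in Nfil3, and a further E-box of Ciart stands in lower case.
Per1 (chr11:69098758-69098813, plus strand): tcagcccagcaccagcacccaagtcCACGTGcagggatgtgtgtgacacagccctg
Tef (chr15:81802521-81802576, plus strand): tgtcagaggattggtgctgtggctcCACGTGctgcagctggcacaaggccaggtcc
Ciart (chr3:95882256-95882311, minus strand): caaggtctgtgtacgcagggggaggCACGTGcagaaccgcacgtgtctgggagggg
Bhlhe41 (chr6:145865543-145865598, minus strand): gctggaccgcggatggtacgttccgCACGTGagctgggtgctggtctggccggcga
Per3 (chr4:151044791-151044848, minus strand): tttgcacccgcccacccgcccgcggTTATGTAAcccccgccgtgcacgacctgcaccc
Nfil3 (chr13:52981040-52981076, minus strand): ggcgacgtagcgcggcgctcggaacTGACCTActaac

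Per1, a repressor of the clock, ran from 59.3 CPM in DR9 to 113 CPM in DR5 and Tef from 59.8 CPM in DR9 to 149 CPM in DR5. Ciart, a repressor as well, ran from 0.524 CPM in DR3 to 2.58 CPM in DR8. Among the genes with an E-box window, Per1 and Tef were lowest in DR9, Ciart in DR3 and Bhlhe41 in DR13. Per3, which had no E-box match, was lowest in DR9 as well, so this order was not particular to genes with the element.

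Single genes of lipid synthesis set other libraries apart, though Fasn and Thrsp also fell with the macrophage score. Fasn, fatty acid synthase, was at 2554 CPM in DR11, 2480 in DR14 and 2368 in DR2, against 919 CPM in DR5 and 968 CPM in DR6. Elovl6, which lengthens saturated fatty acids, was at 3.24 CPM in DR6 and between 13.4 and 37.1 CPM in every other library. Thrsp, a regulator of this pathway, had the same 3 highest libraries as Fasn, at 268, 218 and 236 CPM in DR11, DR14 and DR2. The sum of the fatty acid synthesis list was highest in DR11 (21392.5 CPM), with 20747 CPM in DR14. In DR2 it was 17887 CPM, below the median of 19494 CPM, so these 2 genes did not stand for the list there.

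DR6 was the lowest library for thermogenic genes as well. Ucp1, the uncoupling protein of brown and beige fat, ran from 3.96 CPM in DR6 over a median of 28.7 to 61.4 CPM in DR14, and the sum of the brown and beige list from 41.9 CPM in DR6 to 170 CPM in DR14. In DR6 the mitochondrial genome was also lowest, at 57602 CPM against 81231 CPM in DR14. Progenitor genes such as Dcn (1194 CPM) and Cd34 (205 CPM) peaked in DR6, and the mesothelial sum was highest there.

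The mesothelial list ran from 91.1 CPM in DR4 over a median of 140 to 268 CPM in DR6, with 256 CPM in DR5 and 224 CPM in DR15. Upk3b, a uroplakin of mesothelium, went from 34.0 CPM in DR4 to 107 CPM in DR6, and Msln, mesothelin, from 10.7 CPM in DR4 to 31.2 CPM in DR5. The haemoglobin and other red blood cell genes summed to 611 CPM in DR4, a median of 1281 and 1858 CPM in DR9. No gene of either list passed with a score.

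Imprinted genes gave single libraries rather than a shared order. Igf2, a fetal growth factor, was at 0.684 CPM in DR2 and between 8.37 and 15.1 CPM in the others, but 62.8% of its exon bases also belong to Gm49394 on the same strand, so its level is uncertain. Peg10, a paternally expressed gene of retroviral origin, was at 192 CPM in DR5 and between 42.6 and 108 CPM elsewhere. Mest, a marker of fat expansion, ran from 556 CPM in DR4 over a median of 861 to 1421 CPM in DR6. Of 14 imprinted genes 1 fell with the macrophage score, near the 7.63% of all genes, and 2 rose with the adipocyte score (4.64% of all genes), among them Nnat (508 to 1111 CPM).

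Ranked by variance instead, a different set of genes came first. The median SD of log2 CPM over 15083 genes was 0.157, with a 5th to 95th percentile of 0.065 to 0.520, and 138 genes had an SD over 1. In 64.2% of genes the SD was over 2 times that of counting error alone. The SDs of the 50 most variable genes ran from 1.67 to 4.004, and 4 of these genes passed with the macrophage score and 2 with the adipocyte score, against the 10.03%, 7.63%, 4.64% and 7.99% of all genes that rose or fell. Only 6 of the 50 had a mean CPM over 10.

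Some of the variable genes mark tissue that is not fat. Myh4, the fast myosin heavy chain of skeletal muscle, was at 17.3 CPM in DR15, 5.49 in DR10 and 2.76 in DR14, and had 0 counts in the other 11 libraries. Atp2a1, the calcium pump of fast muscle, was at 24.3, 10.2 and 5.07 CPM in the same libraries and at 2.87 CPM in DR2, and at most 0.976 CPM elsewhere. Ttn and Myh2 peaked in DR15 as well, at 11.6 and 9.97 CPM. Creatine kinase, Ckm, passed 2 CPM in those 4 libraries, and without them 1443 genes rose and 781 fell with the macrophage score.

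A further group of variable genes is known from smooth muscle and the female reproductive tract. Actg2, the enteric smooth muscle actin, was at 57.8 CPM in DR2 and 18.8 in DR6, with a median of 1.71 CPM. Rxfp1, the relaxin receptor, was at 12 CPM in DR2 and 3.69 CPM in DR15, with 0 counts in DR5, DR8, DR9, DR12 and DR13, and Pcp4, a calmodulin regulator, at 18.6 CPM in DR2 and 6.42 CPM in DR6. Pgr, the progesterone receptor, peaked in DR6 (5.67 CPM) and DR2 (4.85 CPM). Rxfp1, Pcp4 and Actg2 fell with the macrophage score, with slopes of -5.80 ± 1.63, -4.89 ± 1.59 and -4.03 ± 1.24, and DR2, where they peaked, also had the highest liver sum and the highest Cnn1 (30.8 CPM).

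Ccl21a, a chemokine of lymphatic endothelium and lymph nodes, ran from 0 in DR9 over a median of 5.91 to 18.2 CPM in DR2. Mpo, myeloperoxidase, was at 7.28 CPM in DR15 and at most 3.17 CPM elsewhere. Ptpn5, a phosphatase known from neurons, was at 8.26 to 8.48 CPM in DR2, DR6 and DR9 and at 5.77 CPM in DR10, with a median of 0.828 CPM and 0 in DR5. Mir17hg, the host of the miR-17 to miR-92 cluster, had 0 counts in DR2 and DR3 and 2.11 to 3.25 CPM in the other 12 libraries.

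Some other genes switched between near absence and a higher level, in libraries with no common order. Gemin4, a protein of the SMN complex (chr11:76210571-76217664, minus strand), was at 0.106 to 0.303 CPM in DR9, DR13 and DR15 and at 8.73 to 11.1 CPM in the other 11. In the GENCODE M21 annotation 89.8% of its exon bases also belong to Glod4 on the same strand, which ran from 32.2 to 44.8 CPM and was highest in those 3 libraries. The sum of both ran only from 41.2 to 48.0 CPM. Values of such partner genes, and the sums, are CPM without the scaling for composition, here and below.

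Ppfia2, a synaptic scaffold gene (chr10:106470339-106935952, plus strand), was at 64.4 to 97.4 CPM in DR8, DR9, DR11 and DR13 and at 1.20 to 3.18 CPM in the other 10. It shares 22.3% of its exon bases with Acss3 on the opposite strand, which was at 152 to 215 CPM in those 4 libraries, while the sum of both was at 220.5 to 310.3 CPM in all 14. Myo1h was at 25.02 CPM in DR1 and 33.8 in DR14 against at most 1.15 CPM elsewhere, and shares 25.8% of its exon bases with Kctd10 on the opposite strand.

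Commd1b, which shares 89.2% with B3gnt2 on the same strand, was at 16.2 CPM in DR1 and 17.4 in DR11, where B3gnt2 had its lowest values of 4.02 and 3.88 CPM. Zfp708, which shares 96.4% with Gm28557, had 0 counts in 6 libraries and 1.34 to 3.35 CPM in the other 8. Nr1i3 (74.9% with Tomm40l, opposite strand), Xntrpc (49.4% with Trpc2) and the histone gene H2ac18 (all exon bases with Gm20633, opposite strand) also share exons. Nr1i3 was spread from 0.0716 to 12.53 CPM with no gap between a low and a high set, Xntrpc had 0 counts in DR8 and DR15 and 0.922 to 3.65 CPM in the others, and H2ac18 had 1.57, 2.08 and 4.88 CPM in DR2, DR4 and DR12 against 22.6 to 51.3 CPM in the others. The levels of these genes are uncertain, since reads in a shared exon could be assigned to either gene.

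Shared exons were common among the most variable genes. More than 50% of the exon bases were shared with another gene in 25 of the 50, against 3.27% of 15073 annotated genes with a mean CPM over 1, and any base was shared in 82.0% against 37.6%. Of the 24 genes named by variance 6 shared more than 50%, and of the 31 named by a score 2 did, Bckdha and Fen1. How reads in shared exons were assigned is not stated, and its part in these values was not tested.

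**Figure D5:**
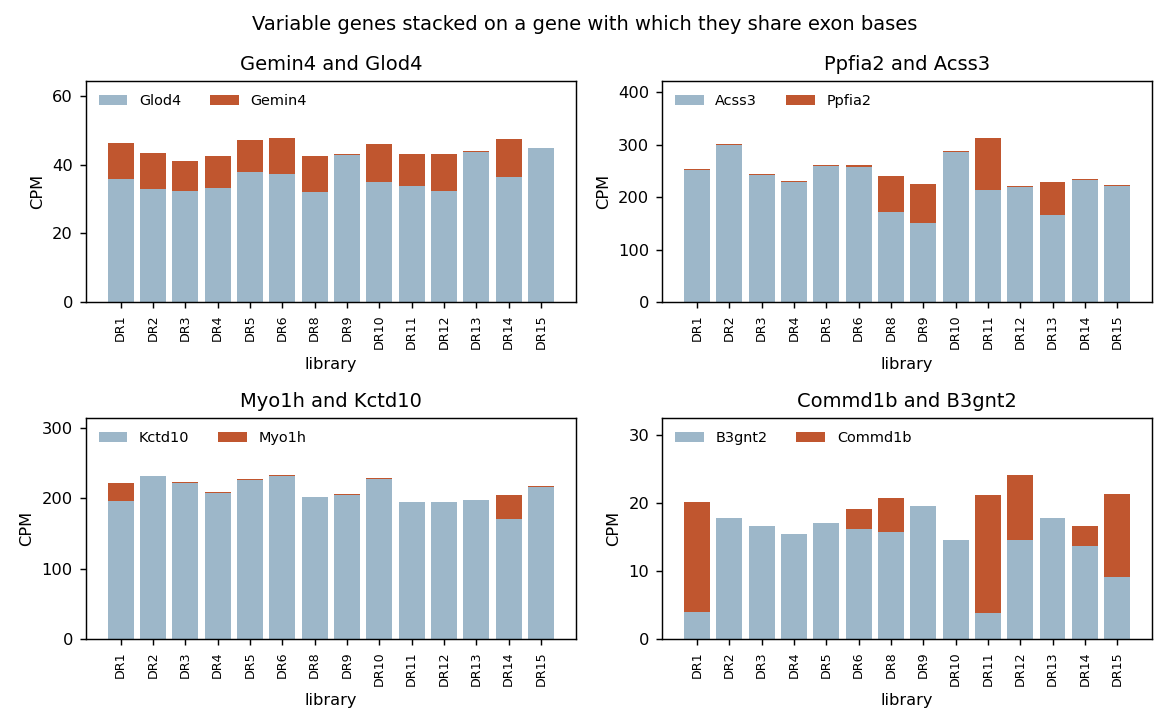
Stacked bars give the CPM (y axis, from 0) of a variable gene on top of a gene with which it shares exon bases, in each of the 14 DR libraries (x axis). The upper part is scaled for composition and the lower part is not. Gemin4 is missing where Glod4 is highest (DR9, DR13, DR15), and their sum without that scaling stays between 41.2 and 48.0 CPM.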

How the data were processed

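Total RNA was extracted with the miRNeasy kit and sequenced by BGI. The authors deposited 1 table of estimated counts for 55401 genes. The submitters' notes name StringTie 2.1.3b and the build GRCm38.p6, and aligner, annotation and strandedness were not given in the sources used here. Estimated counts were rounded to whole numbers. Of the deposited columns, the 15 DR columns were analysed here, each matched by its library number.

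The analysis was run in R 4.3.3 with edgeR 4.0.16. TMM factors were used, genes passed filterByExpr (minimum count 10, total 15), and log2 CPM had a prior count of 2. Each gene was fitted against 1 score by the quasi-likelihood F test, with Benjamini-Hochberg adjustment over all genes tested and a threshold of 0.05. Score markers were fitted and adjusted together with the other genes, and were then left out of the counts for their own score. DESeq2 1.42.0, the study's tool, was an alternative. In simulated data 18156 genes were tested, with 50 of them at each size of slope on the macrophage score. Of each 50 genes, 5, 36, 45 and 50 were recovered at slopes of 0.25, 0.5, 1 and 2, and 1.449% of calls were false. Whether that share holds for the calls in the 14 libraries was not tested. Exon overlaps were taken from GENCODE M21, in which 55141 gene identifiers were found, and promoters from RefSeq. Total counts differed little between libraries, so counting precision was alike.

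Members and the 45 gene lists (512 of 513 entries matched) were chosen with earlier results of these data known. Genes were named by rule among established symbols outside both scores: the 24 of highest variance with a mean CPM over 1, the 8 rising and 8 falling with the smallest p for each score (mean count at least 50), and the 3 members of each list with the smallest p on either score. Other genes, including further members of the lists and most clock genes, were chosen after their values were seen. Not all genes picked in this way are described here.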

Additional observations from a re-analysis of the deposited data

Results flagged for a closer look

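The library DR7 (library number 196), which the results leave out, carried a liver signal: the 12 liver markers summed to 6608.2 CPM in it, against 12.1 to 60.3 CPM in the other 14 DR libraries. Its macrophage markers summed to 1888 CPM and its adipocyte markers to 7105 CPM, both inside the ranges of the other 14 libraries (923 to 2452 CPM and 6107 to 8572 CPM). The source of the liver transcripts was not tested.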

How the results depend on the processing

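Of the alternatives tried, RLE size factors, no composition factor, other filters, the DESeq2 Wald test, library number as a second term, other forms of the scores and the inclusion of DR7 left all 4 counts of genes within 1.5 times their values. Leaving out each library in turn gave 1455 to 1901 genes rising and 806 to 1359 falling with the macrophage score, and 386 to 1075 rising and 882 to 1695 falling with the adipocyte score. The lowest numbers came without DR8, except the last, which came without DR11, and 485 genes rose with the adipocyte score without DR11. Without the 2 libraries farthest from the median score, 776 genes fell with the macrophage score, and 115 rose and 232 fell with the adipocyte score. The other score as a second term left 560 rising and 153 falling with the macrophage score, and 0 and 0 with the adipocyte score. The following were chosen after seeing the data. The liver sum as a second term left 758 and 244 with the macrophage score and 67 and 173 with the adipocyte score, and without the 4 libraries over 2 CPM of Ckm 781 genes fell with the macrophage score and 512 rose with the adipocyte score. The cause of these changes was not tested. The r between the scores stayed negative, from -0.738 to -0.905 with each library left out in turn.

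Of the 50 most variable genes, 17 were shared with DR7 included, 22 when ranked by median absolute deviation, 11 among genes with a mean CPM over 5, and 43 to 49 with each library left out. None of the 32 named slopes changed direction under the alternatives run for it, and only the macrophage score as a second term took calls away, all 16 of those on the adipocyte score. No paired analysis was possible because 1 group was analysed and its replicate numbers only name the animals.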
